A study of Mus musculus with 2 samples.

Results

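The genes described here are 9 genes of hepatic glucose production and amino acid transamination: Pcx, Pck1, Fbp1, G6pc, Ppargc1a, Tat, Sds, Got1 and Gpt. They were taken by symbol from the deposited table of liver RNA, which lists 15348 genes, and all 9 were in it. Liver RNA came from female NOG-TKm30 mice aged 16 weeks, an immunodeficient NOG line that carries a herpes simplex virus thymidine kinase cDNA (HSVtk, mutant clone 30). Controls and treated mice both carry this transgene behind the mouse transthyretin enhancer and promoter, which are active mainly in hepatocytes. Treated mice were given OTD (ortho-toluidine, a small aromatic amine) for 4 weeks in all, 0.6% in the first week and 0.3% over the other 3, and control mice were given 0%. Each library is a pool, of 3 mice for control and 5 for OTD. C57BL is named in the protocol for treatment, against NOG-TKm30 in every other label. Feeding state, vehicle and the hour of liver removal were not stated in the sources used.

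Gluconeogenesis makes glucose from lactate, glycerol and amino acids, and in the fasted state the liver is its main site. Pyruvate carboxylase and phosphoenolpyruvate carboxykinase carry carbon past the pyruvate kinase step, fructose-1,6-bisphosphatase bypasses phosphofructokinase, and glucose-6-phosphatase releases free glucose. Glucagon, glucocorticoids and the transcription factor FOXO1 raise transcription of these enzymes, insulin lowers it, and aminotransferases and serine dehydratase feed amino acid carbon into the pathway. Pck1, G6pc and Sds are typical of periportal hepatocytes.

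Because hormones act on several of these genes through elements near the start, the promoter windows that held a searched motif are shown. RefSeq (GRCm38.p6) gave a window for 7 of the 9 genes (all but Sds and Gpt), and the 250 bases before the annotated start were searched on both strands. The motifs were the cAMP response element TGACGTCA and its half-site TGACG, the forkhead core TGTTTAC, the insulin response core TGTTTTG, the glucocorticoid half-site AGAACA and the TATA box TATAAA. The full element contains the half-site. Capitals mark each match, 5′ to 3′ on the strand of the gene. A half-site on the opposite strand, as in Pck1 and Ppargc1a, therefore reads CGTCA.
Pck1, chromosome 2, plus strand: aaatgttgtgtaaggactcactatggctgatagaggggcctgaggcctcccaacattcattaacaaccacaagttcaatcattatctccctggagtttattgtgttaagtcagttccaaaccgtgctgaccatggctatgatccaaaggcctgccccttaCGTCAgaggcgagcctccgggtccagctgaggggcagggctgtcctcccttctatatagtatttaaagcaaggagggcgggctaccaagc
G6pc, chromosome 11, plus strand: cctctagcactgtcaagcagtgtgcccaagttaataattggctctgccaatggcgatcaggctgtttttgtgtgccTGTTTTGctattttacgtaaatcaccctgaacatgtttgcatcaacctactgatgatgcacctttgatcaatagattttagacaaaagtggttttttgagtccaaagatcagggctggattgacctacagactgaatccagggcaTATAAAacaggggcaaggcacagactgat
Ppargc1a, chromosome 5, minus strand: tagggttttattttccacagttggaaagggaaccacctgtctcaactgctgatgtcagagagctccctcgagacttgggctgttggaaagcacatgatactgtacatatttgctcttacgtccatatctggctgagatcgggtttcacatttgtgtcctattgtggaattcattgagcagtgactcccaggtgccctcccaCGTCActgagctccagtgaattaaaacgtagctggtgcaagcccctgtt

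The Pck1 window (chr2:173152823-173153072) holds the half-site at bases 90 to 86 before the start, and the Ppargc1a window (chr5:51567726-51567975) holds it at bases 49 to 45. The half-site occurs in 17.8% of all 32851 windows of this length. The G6pc window (chr11:101367466-101367715) holds the insulin response core at bases 174 to 168 and a TATA box at bases 29 to 24, motifs found in 5.56% and 12.4% of all windows. The full cAMP element (1.55% of windows), the forkhead core (3.17%) and the glucocorticoid half-site (16.1%) were in no window of the 7 genes. The Fbp1, Tat, Got1 and Pcx windows held none of the 6 motifs. These matches describe letters in a short window, not binding, and the RefSeq starts of Pck1 and G6pc lie inside the gene as GENCODE draws it.

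The control library held 13569189 reads and the OTD library 14685193 reads over the listed genes. Levels are the authors' deposited values, which are read counts scaled to a common total (CPM) and divided by a factor for each library, and 1 read was worth 0.0751 in control and 0.0668 in OTD. Albumin (Alb), the defining hepatocyte product, took 8.01% and 7.10% of reads, and all 9 hepatocyte markers examined were present in both libraries. The ribosomal RNA precursor Rn45s took 1.47% of control and 2.66% of OTD reads. With 1 library per group no test between groups was possible, and the spread between pools was not measured. Ratios are OTD over control with a 95% exact interval that covers counting error only. A log2 ratio was computed after adding 1 to each level, which understates differences of low genes.

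The 9 genes differed little between the libraries and in no common direction. Together they took 0.964% of control reads and 1.01% of OTD reads, and the summed levels were 9826 and 9875. All 9 had a mean level of at least 10, the limit for the 7602 genes compared here. A gene was counted as higher when its OTD level was at least 25% above control and as lower when at least 20% below, the same fold in either direction, on the scale of level plus 1. Of the 9, 0 were higher by this limit, against 7.10% of all 7602 genes, and 1 (Sds) was lower, against 4.95%. None was past 1.5-fold, against 1.51% of all genes higher and 0.908% lower, and none past 2-fold, against 0.210% in each direction. The log2 ratios ran from −0.36 for Sds to 0.27 for G6pc, with a median of −0.046, where all measured genes had a median of −0.0063. The SD across the 9 genes was 0.18, and it was 0.24 across all measured genes. These SDs are not directly comparable. Most measured genes had a mean below 100, where counting error adds more to the spread, while 7 of the 9 had at least 100. Counting intervals left out a ratio of 1 for 7 of the 9 genes, 3 of them higher and 4 lower. They did so for 38.2% of all measured genes and, since the intervals narrow with depth, for 67.4% of the 1486 genes with a mean of at least 100. Of the 7 members at that mean, 6 had such an interval.

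**Figure D1:**
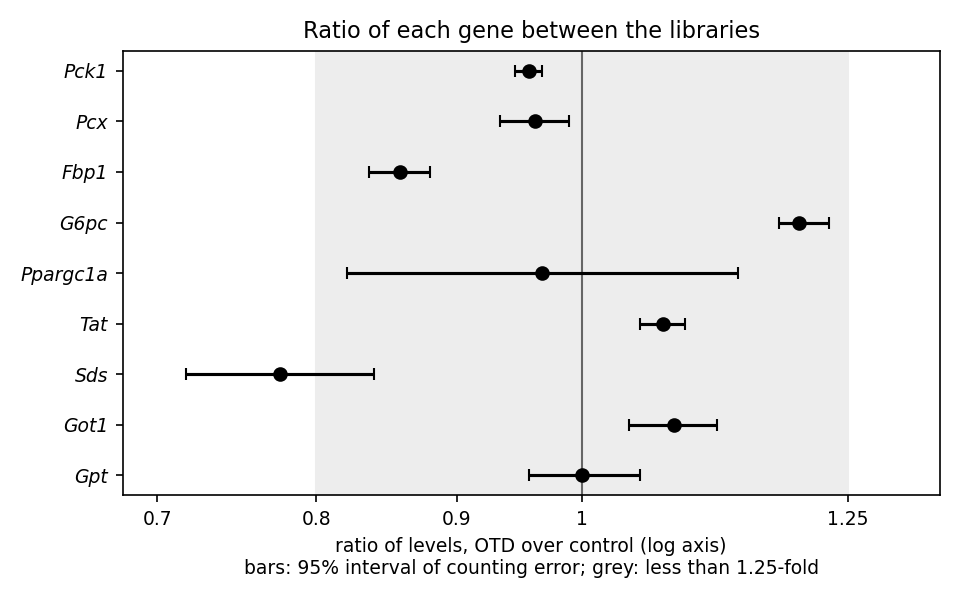
Ratio of levels between the OTD and the control library for each of the 9 genes (log axis), with 95% intervals of counting error and 1 library per group. G6pc lies highest at 1.20 and Sds lowest at 0.776, and the grey band spans ratios from 20% below to 25% above control.

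Among the enzymes of the pathway proper, Pcx and Pck1, which act first, were nearly level, while Fbp1 and G6pc, which act last, moved apart. Pcx, the mitochondrial enzyme that carboxylates pyruvate to oxaloacetate, stood at 639 in control (8507 reads) and 614 in OTD (9191 reads). Pck1, the cytosolic enzyme that turns oxaloacetate into phosphoenolpyruvate, stood at 4162 in control (55398 reads) and 3979 in OTD (59561 reads). The OTD library was slightly below control for both, by a ratio of 0.961 (0.933 to 0.989) for Pcx and 0.956 (0.945 to 0.967) for Pck1. These small differences do not hold a direction across scalings, since both log2 ratios (−0.058 and −0.065) turned positive, to 0.015 and 0.0081, when both libraries were set to 1 common read total with Rn45s left out.

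Fbp1, which removes a phosphate from fructose-1,6-bisphosphate, stood at 897 in control (11941 reads) and 769.7 in OTD (11522 reads). The OTD library was lower, by a ratio of 0.858 (0.836 to 0.880). On the log2 scale this was −0.22, at the percentile 11.9 of all measured genes. G6pc, the catalytic subunit that releases glucose from glucose-6-phosphate, stood at 1049 in control (13966 reads) and 1262 in OTD (18894 reads). It was the highest of the 9 by ratio, 1.20 (1.18 to 1.23), at the percentile 89.6. Among the 1486 genes with a mean of at least 100, 16.1% had a larger absolute log2 ratio than G6pc and 22.9% a larger one than Fbp1. G6pc did pass the 25% limit, at a log2 ratio of 0.34, with equal totals and no Rn45s.

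The quotient of G6pc to Fbp1 reads within a library does not depend on scaling between libraries. It was 1.17 in control and 1.64 in OTD, so that the quotient was 1.40 times that of control (1.36 to 1.45). This pair was chosen after its values were seen.

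Ppargc1a, the coactivator PGC-1-alpha that partners FOXO1 and HNF4-alpha on gluconeogenic promoters, had a level of 21.4 in control (285 reads) and 20.7 in OTD (310 reads). Its ratio of 0.967 had an interval of 0.821 to 1.14, so a difference within these bounds was not detectable at this depth. Its paralog Ppargc1b, which is better known for lipid and mitochondrial genes, stood at 11.0 in control (147 reads) and 6.88 in OTD (103 reads). That is a ratio of 0.623 (0.480 to 0.807) at a mean level below 10. The difference between the paralogs was not tested.

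The amino acid enzymes also went both ways. Tat, the glucocorticoid-responsive aminotransferase that opens tyrosine breakdown, stood at 2345 in control (31216 reads) and 2510 in OTD (37579 reads). Its ratio was 1.07 (1.05 to 1.09). Got1, the cytosolic aspartate aminotransferase of the malate-aspartate shuttle, stood at 383 (5095 reads) and 412 (6169 reads), a ratio of 1.08 (1.04 to 1.12). Both were slightly higher in the OTD library under all scalings tried, with log2 ratios of 0.085 to 0.17 for Tat and 0.093 to 0.18 for Got1. Gpt, the alanine aminotransferase whose enzyme activity in serum serves as a sign of liver injury, stood at 229 in control (3049 reads) and 229.9 in OTD (3442 reads). Its ratio was 1.00, with an interval of 0.956 to 1.05, and its log2 ratio took either sign across the scalings, from −0.0077 to 0.078.

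Sds, serine dehydratase, which turns serine into pyruvate, showed the largest difference of the 9 genes in the levels as deposited, while with equal totals, with or without Rn45s, G6pc did. Sds stood at 99.8 in control (1328 reads) and 77.4 in OTD (1159 reads), a ratio of 0.776 (0.717 to 0.840). With a log2 ratio of −0.36 it lay at the percentile 3.44 of all measured genes. It no longer passed the 20% limit with equal totals, where its log2 ratio was −0.31, or when Rn45s was also left out, at −0.29. Exons of Sds overlap those of Plbd2 on the opposite strand over 360 bases. Plbd2 itself stood at 109.5 and 91.7, a ratio of 0.837. The libraries keep strand, but no source used here says whether counting used strand, so reads of both genes could be mixed there, and the part of Plbd2 in the value of Sds was not tested.

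**Figure D2:**
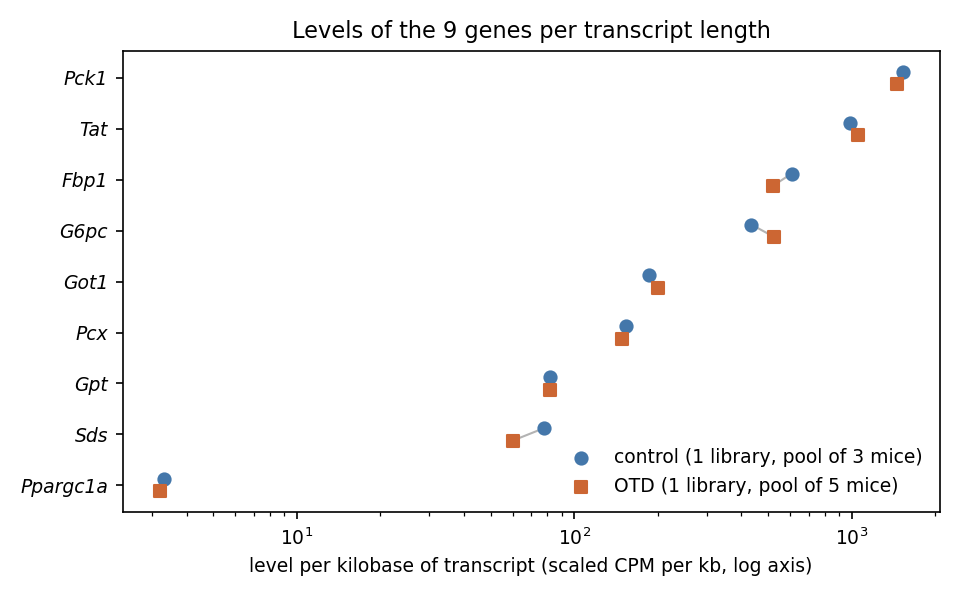
Level of each of the 9 genes per kilobase of its longest annotated transcript in the control (circles) and OTD (squares) library, on a log axis. Pck1 lies highest, at 1526 and 1458, and Ppargc1a lowest, at 3.31 and 3.20, and G6pc and Fbp1 meet in the OTD library.

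Per kilobase of transcript, the order of the genes in control was Pck1 (1526), Tat (987), Fbp1 (607), G6pc (435), Got1 (186), Pcx (154), Gpt (81.7), Sds (77.5) and Ppargc1a (3.31). In OTD it was Pck1 (1458), Tat (1057), G6pc (523), Fbp1 (520.4), Got1 (200.2), Pcx (148), Gpt (82.0), Sds (60.1) and Ppargc1a (3.20). The order changed in 1 place, where G6pc reached the level of Fbp1: 515 to 530.3 for G6pc and 511 to 530.0 for Fbp1 in OTD, against 427 to 442 and 596 to 618 in control. Gpt and Sds had overlapping intervals in control (78.8 to 84.6 and 73.4 to 81.7) and separate ones in OTD (79.3 to 84.8 and 56.7 to 63.7). All other neighbours in the order were separated by more than counting error in both libraries. Pck1 and Tat alone made up 42.4% and 23.9% of the reads of the 9 genes in control, and 40.3% and 25.4% in OTD.

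In GRCm38 (GENCODE M21) all 9 are protein-coding genes. Pck1 lies on chromosome 2 at 173153048 to 173159273, Ppargc1a on chromosome 5 at 51454250 to 51567726 and Sds on chromosome 5 at 120476526 to 120483932. Tat lies on chromosome 8 at 109990437 to 109999803, G6pc on chromosome 11 at 101367561 to 101377903 and Fbp1 on chromosome 13 at 62864753 to 62888282. Gpt lies on chromosome 15 at 76695716 to 76699686, and Pcx and Got1 on chromosome 19 at 4510472 to 4621752 and 43499752 to 43524605. Of the 50-base stretches of their longest transcripts, 0 occur in the same sense in transcripts of other genes for 8 of the 9. For Ppargc1a, 1 of 6415 does. Overlap on the opposite strand, as of Sds with Plbd2, was outside this search. Sds also shares 141 exon bases with the antisense gene Gm15690, which is not among the listed genes. Pcx overlaps Lrfn4 and Ppargc1a overlaps 4 unconfirmed gene models without shared exon bases.

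Each enzyme was next set beside the other enzyme of the same reaction. Pck2, the mitochondrial carboxykinase, had 25 control reads and 27 OTD reads (levels 1.88 and 1.80), and Pck1 reads outnumbered those of Pck2 by 2216 and 2206 times. G6pc3, the widely expressed glucose-6-phosphatase, stood at 1.80 and 3.07 (24 and 46 reads), a ratio of 1.70 (1.02 to 2.92). G6pc2, the islet form, had 3 and 5 reads and Fbp2, the muscle form, 3 and 0 reads, which is too few for a ratio. Sdsl, the serine dehydratase-like gene, stood at 7.21 and 6.01, with a ratio of 0.834 (0.618 to 1.12). The liver forms therefore carried nearly all reads of these reactions in both libraries, and Sds made up 94.1% and 93.7% of Sds and Sdsl together per kilobase.

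The aminotransferases differed from this, since both forms were present at similar levels. The mitochondrial aspartate aminotransferase Got2 had levels of 472 and 495, and Got1 made up 49.9% (49.0 to 50.9) and 50.6% (49.7 to 51.4) of the pair per kilobase. Gpt2, the mitochondrial alanine aminotransferase, stood at 477 in control (6350 reads) and 417 in OTD (6243 reads), a ratio of 0.874 (0.844 to 0.905). With Gpt level and Gpt2 lower, Gpt made up 38.4% (37.4 to 39.4) of this pair in control and 41.7% (40.7 to 42.7) in OTD. The quotient of Gpt to Gpt2 was 1.15 times that of control (1.08 to 1.22), while that of Got1 to Got2 was 1.03 times (0.976 to 1.08).

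**Figure D3:**
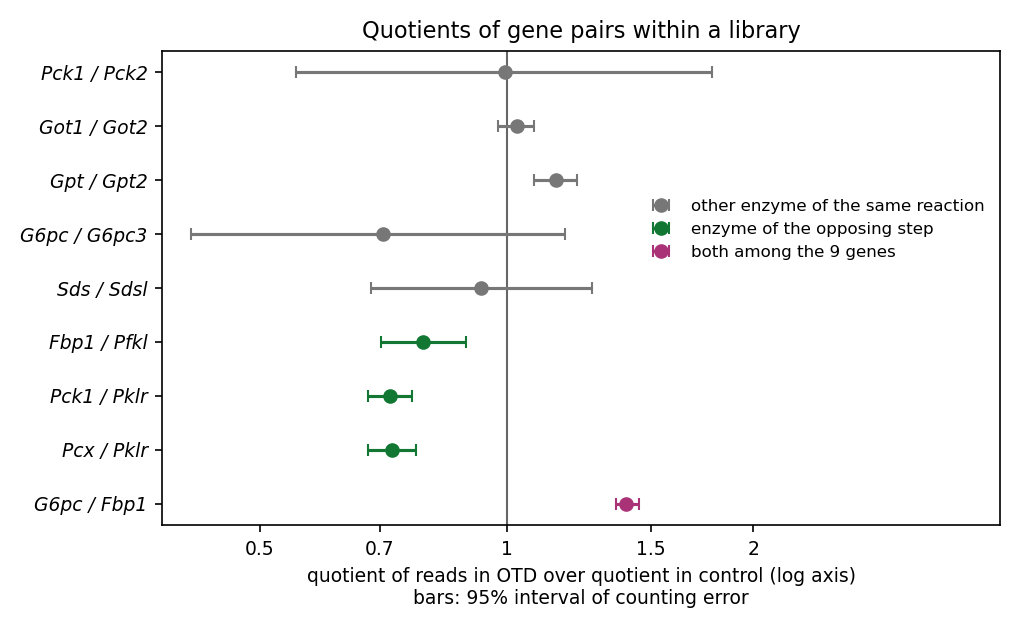
Quotient of the reads of 2 genes in the OTD library over the same quotient in the control library (log axis), with 95% intervals of counting error. G6pc to Fbp1 lies at 1.40, and Fbp1 to Pfkl, Pck1 to Pklr and Pcx to Pklr lie between 0.721 and 0.791.

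Glycolytic enzymes catalyse the steps that gluconeogenesis bypasses. Fbp1, Pck1 and Pcx were set against an opponent within the same library (pairs chosen after values were seen). At the fructose-bisphosphate step, Pfkl, the liver phosphofructokinase, stood at 39.7 and 43.0, a ratio of 1.08 (0.965 to 1.22). The quotient of Fbp1 to Pfkl was 0.791 times that of control (0.702 to 0.892). At the pyruvate step, Pklr, the liver pyruvate kinase, stood at 137 and 182, a ratio of 1.33 (1.249 to 1.407). The quotient of Pck1 to Pklr was 0.721 times (0.678 to 0.766) and that of Pcx to Pklr 0.725 times (0.678 to 0.775) that of control. At both steps the balance of transcripts stood more on the side of glycolysis in the OTD library. Pck1 and Pcx themselves were nearly level, and Pklr was the gene that differed at the pyruvate step. At the fructose-bisphosphate step the gene that differed was Fbp1 (0.858), while the interval of Pfkl included 1. Quotients of transcripts are not fluxes.

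**Figure D4:**
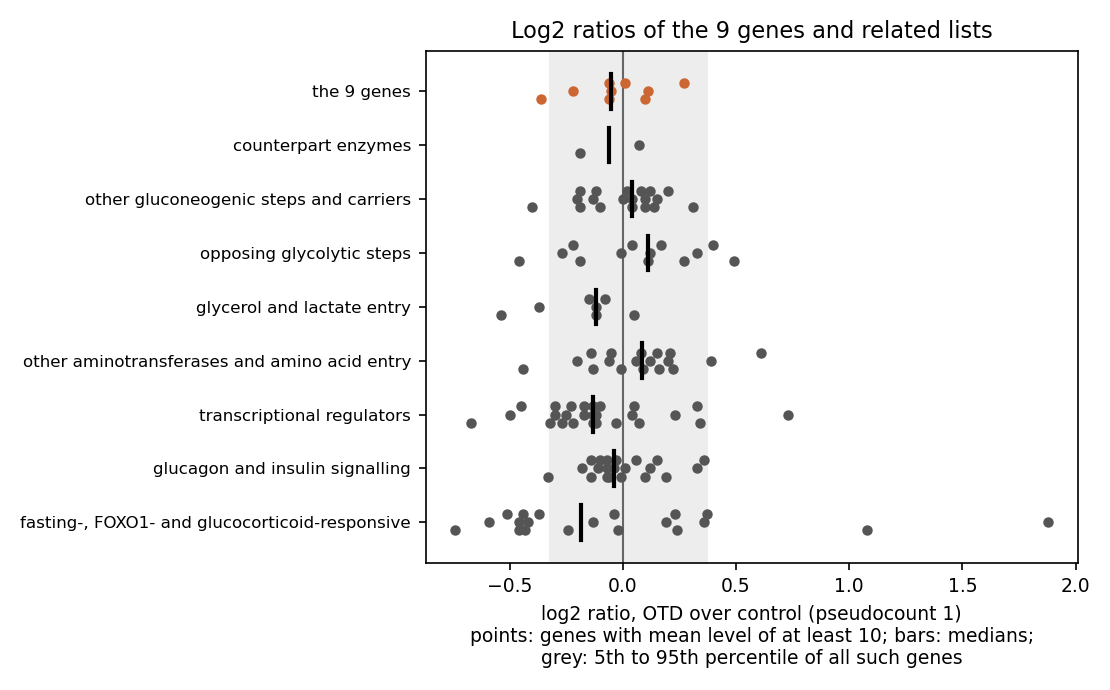
Log2 ratio (OTD over control, pseudocount 1) of the 9 genes and of measured genes in 8 related lists. Points are genes, black bars are list medians, and the grey band spans −0.32 to 0.37, the 5th to 95th percentile of all 7602 measured genes. The 9 genes have a median near 0, and Ddit4 and Igfbp1 stand far to the right in the bottom list.

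Of 20 further gluconeogenic steps and carriers, 19 were measured, with a median log2 ratio of 0.036. By the 25% and 20% limits, which 7.10% and 4.95% of all measured genes passed, 0 were higher and 1 was lower. That 1 was lactate dehydrogenase Ldha (ratio 0.755), while triose phosphate isomerase Tpi1 had 1.24 and the glucose-6-phosphate carrier Slc37a4 0.873. The aspartate-glutamate carrier Slc25a12 had 1.17, with an interval of 0.945 to 1.44. Of 7 glycerol and lactate entry genes, 6 were below 0, with a median of −0.12. The monocarboxylate carrier Slc16a1 had a ratio of 0.684, the glycerol-3-phosphate dehydrogenase Gpd2 0.774 and glycerol kinase Gyk 0.903. Slc16a7 had 0.918, with an interval of 0.838 to 1.01, and the glycerol channel Aqp9 0.943. Another 13 measured genes belong to glycolytic and nearby steps, with a median of 0.11. They mix enzymes with regulators, among them Gckr, Pdk1, Pdk2 and Pdk4, so the median does not describe glycolytic enzymes alone. Of the 13, 3 were higher by that limit (Pfkfb1 at 1.43, Pklr, and Pkm at 1.28). The 1 lower was the pyruvate dehydrogenase kinase Pdk4, at 0.727. Fructokinase Khk had 0.876. Of 18 measured aminotransferase and amino acid entry genes beyond the members, 2 were higher by that limit (Ccbl1, a kynurenine aminotransferase, at 1.54, and serine racemase Srr at 1.31) and 1 lower (ornithine aminotransferase Oat at 0.737). Agxt had 1.17 and glutamate dehydrogenase Glud1 0.916.

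Genes that control gluconeogenic transcription were taken next. Of 26 measured transcriptional regulators, 19 were below 0, as were 3921 of all 7602 measured genes. The median log2 ratio of the regulators was −0.13. In each direction 3 passed the limit, against 7.10% of all genes higher and 4.95% lower. Hnf4a, a nuclear receptor that drives Pck1 and G6pc, had a ratio of 0.707, Klf9 0.628 and Nr0b2, which encodes the repressor SHP, 0.728. The kinase gene Sik1, which is induced by cAMP and restrains CREB coactivators, had 1.67. The other two above the limit, Kat2a (1.28) and Onecut1 (1.27), were named after their values were seen. Among 21 measured genes of glucagon and insulin signalling, the median was −0.040, with the insulin receptor substrate Irs2 at 1.28, Pde4b at 1.27, Trib1 at 0.788 and Prkaca at 1.15.

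Of 20 measured fasting, FOXO1 and glucocorticoid responders, 4 were higher and 9 lower by the limits, against 7.10% and 4.95% of all genes. The median log2 ratio of the 20 was −0.18. Igfbp1, a FOXO1 target often read beside G6pc, had a ratio of 2.12 and Ddit4, a glucocorticoid and stress target, 4.29 (3.24 to 5.79) from 59 control reads. The other two above the limit were Irs2 and, named after its value was seen, the phosphatase gene Dusp1 (1.30). Among the 9 lower genes, Lpin1 had a ratio of 0.662 and Zbtb16 0.594. The median was −0.42 over genes with a mean of at least 50 and −0.11 with equal totals and no Rn45s. Pck1 (0.956) and Tat (1.07), which respond to the same hormones, lay between the higher and the lower genes. Some of these lists share genes, and no list was tested against another.

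In bulk RNA, fewer cells of a type and less RNA per cell cannot be told apart. In the levels as deposited, the 9 hepatocyte markers were all below 0, with a median log2 ratio of −0.15. Ttr and Fgb, named after their values were seen, were at −0.06. That is nearer to 0 than the shift of 0.073 from equal totals without Rn45s. The summed level was 146571 in control and 126905 in OTD, with Alb the most abundant. Hnf4a (0.707) and Trf (0.847) had the largest log2 ratios in size, but Hnf4a, at 948 and 669.9, added little to the sum. Of the 9 gluconeogenic and transamination genes, 4 were above 0, among them Gpt, whose sign varied with scaling, and of all measured genes 48.4% were. The 13 periportal markers, 3 of which are Pck1, G6pc and Sds, had a median of −0.041, with 4 above and 9 below 0, and sums of 19125 and 18987. Cps1 (1.10) and Aldh1b1 (1.30) were above, and Ass1 (0.849) and Pigr (0.820), named after their values were seen, below. The 12 pericentral markers summed to 9588 and 8131, and most of that difference was Cyp2e1 (6152 and 4858). Of the 11 measured, 3 were above and 8 below 0, with a median of −0.15. Axin2 had a ratio of 0.468 and Tbx3 0.666, and Glul (0.932) and Cyp1a2 (1.17) were named after their values were seen. Markers of Kupffer cells summed to 474 and 437 (Clec4f 0.924, Cd163 0.876, Csf1r 0.899), of sinusoidal endothelium to 573 and 550.2 (Fcgr2b 0.834, Pecam1 0.831, Stab2 0.957) and of stellate cells to 798 and 759.8 (Lrat 0.764, Col3a1 1.26, Reln 0.992). Those of cholangiocytes summed to 55.6 and 60.2 (Prom1 1.86, Sox9 0.824, Spp1 0.941) and those of erythroid cells to 312 and 389.8 (Hba-a2 1.76, Hba-a1 1.07). Most of the erythroid difference was Hba-a2 (80.6 and 142). All 4 measured erythroid markers were above 0, with Hbb-bt (1.05) and Alas2 (1.06), named after their values were seen, nearly level. No marker in these lists stood at 0 in either library. Of 8 skeletal muscle and pancreas markers, 1 was in the table, Cela1, at 9.17 and 9.95, named after its values were seen. The part of cell makeup in the values of the 9 genes was not tested.

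**Figure D5:**
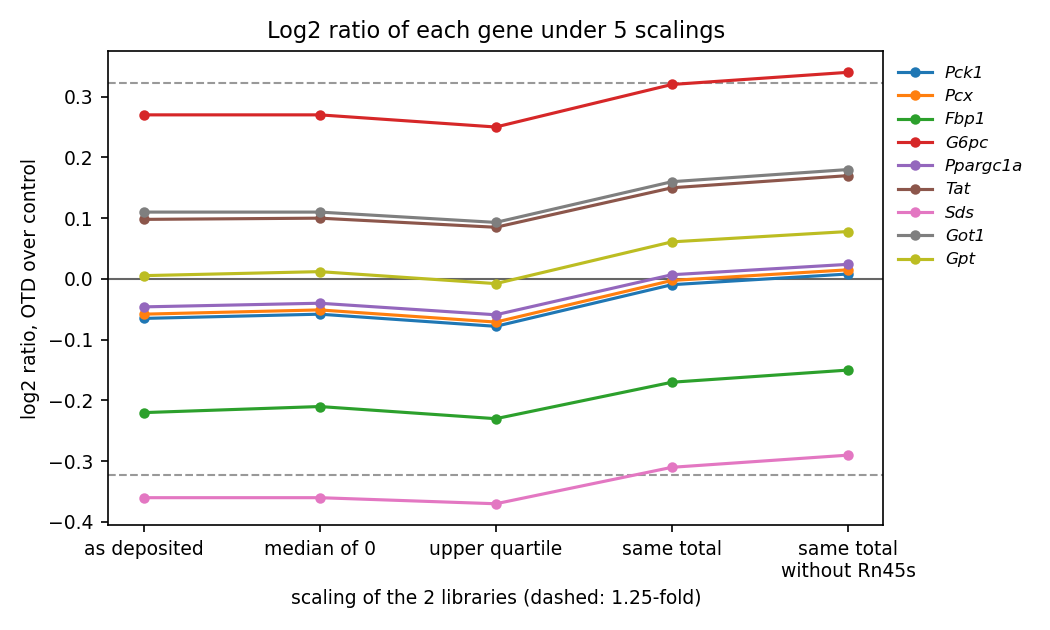
Log2 ratio (OTD over control) of each of the 9 genes under 5 ways of scaling the 2 libraries, with dashed lines at 25% higher and 20% lower. Lines join the values of a gene. The order of the genes is the same under each scaling, and Pck1, Pcx, Ppargc1a and Gpt cross 0.

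Scaling shifts all genes together, so the spacing between the 9 genes stayed nearly the same while their place relative to 0 moved. Equal totals moved OTD up by 0.056 on the log2 scale, and leaving out Rn45s moved it by 0.073. Across the scalings and pseudocounts, 5 of the 9 genes kept their sign: G6pc, Tat and Got1 above 0, and Fbp1 and Sds below. The other 4 (Pck1, Pcx, Ppargc1a and Gpt) took either sign.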

How the data were processed

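Liver RNA of 2 pools was compared, 1 library each. Ribosomal RNA was depleted from 200 ng of input and a directional kit was used, per the labels' protocols. The submitters' processing notes name the mm10 build, RSEM, Bowtie2, edgeR and Trimmomatic 0.38 without roles. The authors deposited a normalized expression signal per gene. All values (100%) divided by the level of 1 read gave whole numbers within 1e-06, so reads were recovered. The signal equals CPM divided by 0.981 (control) and 1.02 (OTD). With 1 library per group no degrees of freedom remain, and no count test could be fitted. Column names gave the group through Ctrl or OTD. They also carry the unexplained word Wild.

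Ratios carry 95% intervals (Clopper-Pearson, from how reads split between libraries), levels per kilobase exact Poisson intervals, and quotients of genes conditional exact intervals. All intervals cover counting error only, and PCR copies are not independent. The log2 ratio used a pseudocount of 1. Genes with a mean of at least 10 were compared. GENCODE M21 gave lengths (longest transcript) and positions and matched 96.0% of symbols. The script was tested on simulated reads. Members and lists were chosen with earlier results of these data known. Named were the 9 genes, the other enzymes of their reactions, and from each other list the gene with the highest level and the 4 (cell type lists: 2) with the largest log2 ratios. A few genes taken by this rule are left unreported. The software was scipy 1.17.1, numpy 2.4.6, pandas 2.3.3 and matplotlib 3.10.9 under Python 3.11.15.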

Additional observations from a re-analysis of the deposited data

How the results depend on the processing

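Of the 9 genes, 1 was at least 20% lower. This count became 0 with equal totals, 0 when Rn45s was also left out (chosen after seeing the data), and 0 at 1.5-fold and at 2-fold, where the threshold itself is stricter. The count of higher genes was 0 and became 1 (G6pc) with equal totals and no Rn45s. The median log2 ratio of the 9 genes ran from −0.059 (upper quartile) to 0.024 (without Rn45s). Of 54 values of single genes under the alternatives, 13 moved beyond the counting interval, all with equal totals, with or without Rn45s. Pck1, Pcx, Ppargc1a and Gpt, none of them past the fold limit, took either sign, and the other 5 genes kept theirs. Of 56 medians of the other lists, 4 moved. Scaling leaves quotients of genes within a library as they are; by reads instead of reads per kilobase, Got1 made up 44.8% and 45.4% of its pair and Gpt 32.4% and 35.5%. The pools of 3 and 5 mice give no spread, and the variation between mice was not measured. Depth limits Ppargc1a (285 and 310 reads) and the less abundant forms of the enzymes. No paired analysis was possible because each group has 1 library.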
